A study of Mus musculus with 8 samples.

Results

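The comparison described here sets the 2 Ep1 libraries labelled with PDT at 20 J/cm2 against the 2 Ep1 libraries labelled with PDT at 10 J/cm2, out of 8 mouse brain libraries in the series. It holds every gene with a mean of 1 FPKM or more (fragments scaled to gene length and to the size of the library) in either pair, which left 14595 of 55780 genes in the table. Mean FPKM was 1 or more in both pairs for 13572 of them, in the 20 J/cm2 pair only for 497 and in the 10 J/cm2 pair only for 526. Genes that entered through a single pair had their direction fixed by the rule, and they remain in the counts and medians below. At the edge of that rule, Alyref2 entered with a mean of 1.0001 FPKM at 20 J/cm2 and 0.606 FPKM at 10 J/cm2, and Ppfibp2 stayed outside with 0.99755 FPKM at 20 J/cm2 and 0.99963 FPKM at 10 J/cm2.

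All 8 libraries came from the C57BL/6 strain. Ep1 3 and Ep1 4 carry the 20 J/cm2 label, Ep1 1 and Ep1 2 the 10 J/cm2 label, and Ctrl 1 to Ctrl 4 are labelled untreated. The labels do not expand Ep1 or PDT and give no sex, age or time after treatment, nor do they say which agent, if any, was given with the energy. The series title speaks of MNP and its design text of a magnetic force, whereas the treatment field names PDT with an energy per area; the 2 accounts were not reconciled here. No label says that the libraries came from separate animals, so each p-value measures the spread between these libraries, which may be technical. Assigning the table's E and C columns to Ep1 and Ctrl rests on letter and number alone.

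The brain's vessel wall is formed by endothelial cells joined by tight junctions, and it answers injury by changes in junction, transporter and angiogenic genes. Neurons and glia answer injury and activity with immediate early transcription factors within the same tissue, and cytokines acting through the STAT3 transcription factor raise Socs3, which feeds back on the receptor. Heat shock proteins are chaperones that are made when proteins unfold. Region markers, such as those of the choroid plexus, the epithelium that makes cerebrospinal fluid, differ between parts of the brain. Their level in a bulk sample depends both on the parts it contains and on the RNA per cell.

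The 8 libraries held 15038147 to 17772972 fragments on genes. Among tested genes, the 20 J/cm2 libraries differed from each other by a median of 0.0972 on the log2(FPKM + 1) scale and the 10 J/cm2 libraries by 0.116, while the 4 distances between a 20 and a 10 J/cm2 library ran from 0.108 to 0.140. The distances of Ep1 1 from Ep1 3 and Ep1 4 (0.116 and 0.108) thus lay within those between libraries of the same energy. Those of Ep1 2 from Ep1 3 and Ep1 4 (0.131 and 0.140) were larger than both. Ep1 2, of the 10 J/cm2 pair, was nearer than the other Ep1 libraries to Ctrl 1, Ctrl 2 and Ctrl 4, with medians of 0.133 to 0.143, against 0.182 to 0.208 for Ep1 1, Ep1 3 and Ep1 4. Ctrl 3 stood apart from the other Ctrl libraries (0.174 to 0.191, against 0.0700 to 0.0976 among those 3), and mitochondrial genes took 5.08% of its fragments. Because Ctrl served to estimate the spread, results without Ctrl 3 are given where they moved. The source field names brain tissue and the cell type field brain microvessel endothelial cells. Camk2a, a neuronal kinase, stood at 419 and 459 FPKM at 20 J/cm2 and 451 and 460 FPKM at 10 J/cm2, whereas Pecam1, an endothelial adhesion molecule, stood at 6.58 and 6.95 FPKM at 20 J/cm2 and 6.16 and 4.60 FPKM at 10 J/cm2. With neuronal RNA at such levels, the libraries are described as brain tissue here.

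AC149090.1 was the single gene that passed the test, and it was higher at 20 J/cm2. It had 138 and 128 FPKM in the 20 J/cm2 libraries, against 59.0 and 54.5 FPKM in the 10 J/cm2 libraries. The Ctrl libraries lay between 63.6 and 65.2 FPKM with a median of 65.1. The 20 J/cm2 libraries therefore stood well above all the others, and the 10 J/cm2 libraries just below Ctrl. The difference was 1.22 ± 0.08 on the log2(FPKM + 1) scale (SE, 95% interval 1.04 to 1.39), with an adjusted p of 0.00296 in limma. AC149090.1 (ENSMUSG00000095041) is annotated as a protein-coding gene on the minus strand of the unplaced scaffold JH584304.1, positions 52190 to 59690 of GRCm38, and no function is attached to it here. How reads that match several places were counted is not given in the sources used here, and whether other copies share in this level was not tested. The call was lost in the fit of the 4 Ep1 libraries alone (adjusted p of 0.0857) and without Ep1 3, Ep1 4 or Ep1 2 (adjusted p of 0.0517, 0.0564 and 0.0890), while the difference stayed between 1.16 and 1.27.

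Over all genes tested, 1 was higher (0.00685%) and 0 were lower (0%) at 20 than at 10 J/cm2 at an adjusted p of 0.05 in limma. At an unadjusted p of 0.05, 540 genes were higher and 523 lower, and limma with voom weights on recovered fragments also called 1 higher and 0 lower. Without Ctrl 3 the unadjusted number was 1860 instead of 1063, with 1 gene called. The median log2 difference was 0.01, the quartiles were -0.09 and 0.11, and the median SE was 0.12. Both 20 J/cm2 values lay above both 10 J/cm2 values for 3271 genes (22.4%) and below both for 2870 (19.7%), and the pairs overlapped for 8454 (57.9%). With 2 libraries a side an exact two-sided permutation test cannot go below 0.333, so the sections that follow describe values and overlap. Apart from AC149090.1, no gene named in them passed the test, and "above" or "below" refers to the position of both values of a pair.

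**Figure D1:**
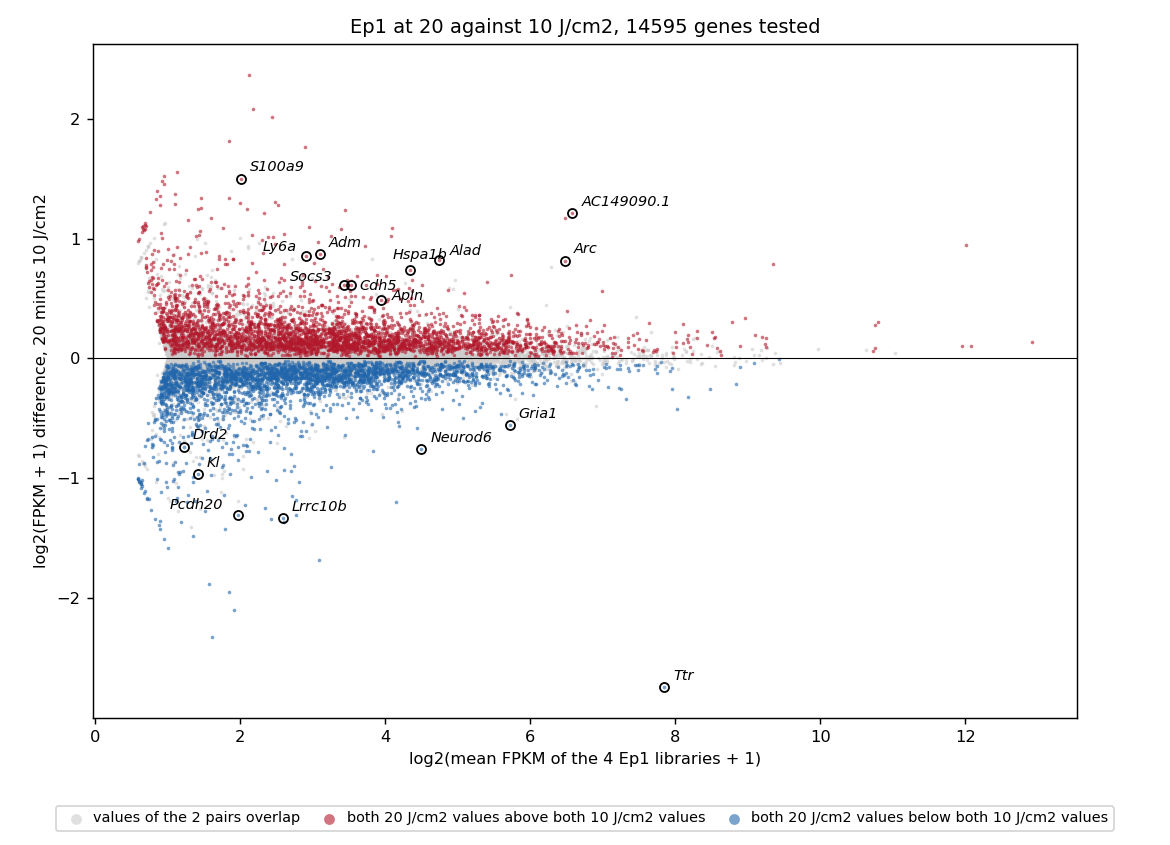
Each point is 1 of the 14595 genes tested, with the log2 of the mean FPKM of the 4 Ep1 libraries plus 1 on the x axis and the log2(FPKM + 1) difference, 20 minus 10 J/cm2, on the y axis; colours give the overlap of the pairs. AC149090.1 at 1.22 is the single called gene, most points lie close to 0, and Ttr lies lowest at -2.74.

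Alad had the smallest adjusted p among the genes that did not pass (0.128, limma). It encodes aminolevulinate dehydratase, an enzyme of haem synthesis, and lies on chromosome 4 at 62509169 to 62519918 (GRCm38). Its level was 33.3 and 33.1 FPKM at 20 J/cm2, against 16.8 and 20.0 FPKM at 10 J/cm2. Ctrl libraries lay between, from 27.6 to 30.1 FPKM, so the energies stood on opposite sides of the untreated range. The difference was 0.82 ± 0.09 on the log2 scale (SE). Sytl1, which encodes a synaptotagmin-like protein of vesicle traffic, had 8.21 and 7.80 FPKM at 20 J/cm2 and 4.66 and 4.48 FPKM at 10 J/cm2 (0.69 ± 0.09, SE), with a range of 3.74 to 4.54 FPKM in Ctrl. Its 10 J/cm2 values were next to Ctrl and its 20 J/cm2 values apart from both; Sytl1 was singled out after its values were seen.

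Choroid plexus markers were below at 20 J/cm2 without exception among those tested. The list names 15 genes, 9 of which passed the expression rule, 3 of them with a mean of 1 FPKM or more in both pairs, so that most entered through the 10 J/cm2 pair and had to be lower at 20 J/cm2. Over all genes tested, 19.7% lay below. Ttr, the thyroid hormone carrier that the choroid plexus secretes, had 16.01 and 172 FPKM at 20 J/cm2 and 309 and 424 FPKM at 10 J/cm2. In Ctrl it ranged from 367 to 701 FPKM, with a median of 551. The pairs did not overlap, but the 20 J/cm2 libraries were far from each other, with Ep1 3 the lowest. Its log2 difference was -2.74 ± 0.93 (SE, adjusted p of 0.614 in limma), and it was -1.07 without Ep1 3 and -4.4 without Ep1 4. The median log2 difference of the list was -0.70, with -0.54 without Ep1 3 and -0.85 without Ep1 4.

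Enpp2, which encodes the phospholipase autotaxin, had 36.6 and 43.1 FPKM at 20 J/cm2 and 51.7 and 58.8 FPKM at 10 J/cm2. Ctrl libraries had 62.0 to 71.6 FPKM, above every Ep1 library. Kl, the anti-ageing protein klotho, had 0.557 and 1.08 FPKM at 20 J/cm2 and 2.17 and 2.88 FPKM at 10 J/cm2, where Ctrl had 1.39 to 2.54 FPKM. The water channel gene Aqp1 had 0.600 and 0.589 FPKM at 20 J/cm2 and 1.54 and 1.65 FPKM at 10 J/cm2, and the folate receptor gene Folr1 had 0.331 and 0.645 FPKM at 20 J/cm2 and 1.37 and 1.42 FPKM at 10 J/cm2. Summed over the list, the level was 58.1 and 224 FPKM at 20 J/cm2, 377 and 501 FPKM at 10 J/cm2, and 443 to 797 FPKM in Ctrl. The lowest sum belonged to Ep1 3. In a bulk sample, fewer cells of a type and less RNA per cell cannot be told apart, and how much choroid plexus each piece of tissue held was not recorded in the labels.

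**Figure D2:**
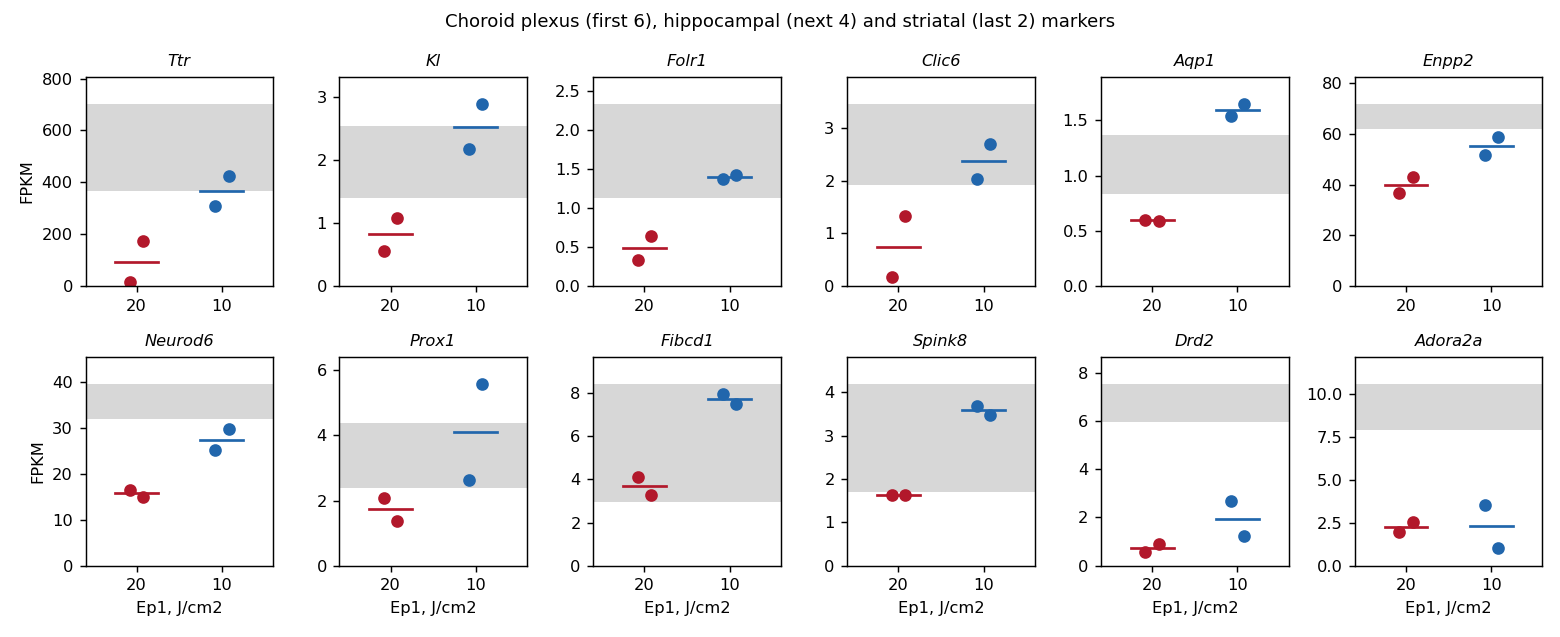
FPKM of 12 region markers in the Ep1 libraries at 20 (left) and 10 J/cm2 (right); points are libraries, short lines are pair means and the grey band is the range of the 4 Ctrl libraries. The pairs overlap for Adora2a and not for the others, but Kl, Folr1, Clic6, Aqp1 and Drd2 met the expression rule through the 10 J/cm2 pair alone, which fixed their lower position at 20 J/cm2.

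Hippocampal markers followed the same direction. All 10 passed the expression rule, 8 in both pairs. At 20 J/cm2, 8 lay below (80%) and none above, against 19.7% and 22.4% of all genes. Of those 8, Dsp and Lct entered through the 10 J/cm2 pair alone, which fixed their direction. The median log2 difference was -0.69 where all genes had 0.01. Without Ep1 2 that median was -0.30. Neurod6, a transcription factor of excitatory forebrain neurons, had 16.6 and 15.1 FPKM at 20 J/cm2 and 25.3 and 29.7 FPKM at 10 J/cm2. Its log2 difference was -0.76 ± 0.12 (SE, adjusted p of 0.291 in limma), and Ctrl lay higher still at 31.9 to 39.6 FPKM. Fibcd1, an endocytic chitin receptor gene, had 4.11 and 3.30 FPKM at 20 J/cm2 and 7.95 and 7.49 FPKM at 10 J/cm2, within a Ctrl range of 2.97 to 8.42 FPKM. The Ctrl libraries alone thus spanned all 4 Ep1 values of Fibcd1. Prox1, the transcription factor of dentate granule cells, had 2.10 and 1.37 FPKM at 20 J/cm2 and 2.63 and 5.58 FPKM at 10 J/cm2, and the protease inhibitor gene Spink8 had 1.64 FPKM in both 20 J/cm2 libraries and 3.69 and 3.49 FPKM at 10 J/cm2. Wfs1 and C1ql2 overlapped between the pairs.

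Receptor genes of excitatory and inhibitory synapses were the longest list in which no member lay above. The list holds 27 subunits and GABA genes, all tested, of which 16 lay below (59.3%) and 11 overlapped. Over all genes, 19.7% lay below and 22.4% above. The median log2 difference of the list was -0.11 (-0.07 without Ep1 2). Gria1, a subunit of the AMPA glutamate receptor, had 41.1 and 42.0 FPKM at 20 J/cm2 and 55.3 and 68.3 FPKM at 10 J/cm2 (-0.55 ± 0.12, SE). Ctrl lay at 47.9 to 58.5 FPKM, with both 20 J/cm2 values under that range and Ep1 2 over it. Gabra5, the GABA-A subunit best known from hippocampal pyramidal cells, had 13.2 and 14.3 FPKM at 20 J/cm2 and 19.2 and 21.5 FPKM at 10 J/cm2 (-0.53 ± 0.10, SE). Gabrb2, another GABA-A subunit, had 14.1 and 14.3 FPKM at 20 J/cm2 and 19.6 and 20.0 FPKM at 10 J/cm2, all below the 24.3 to 30.3 FPKM of Ctrl. By contrast, Grin1, the obligate NMDA receptor subunit, overlapped, with 68.3 and 70.3 FPKM at 20 J/cm2 and 69.6 and 66.8 FPKM at 10 J/cm2, and so did Gad1, which makes GABA, with 47.7 and 46.5 FPKM at 20 J/cm2 and 47.8 and 42.7 FPKM at 10 J/cm2. The hippocampal markers had the same direction as these receptor genes, their summed level being 87.0 FPKM in both 20 J/cm2 libraries and 112 and 125 FPKM at 10 J/cm2, against 96.7 to 107 FPKM in Ctrl; their part in the receptor values was not tested.

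**Figure D3:**
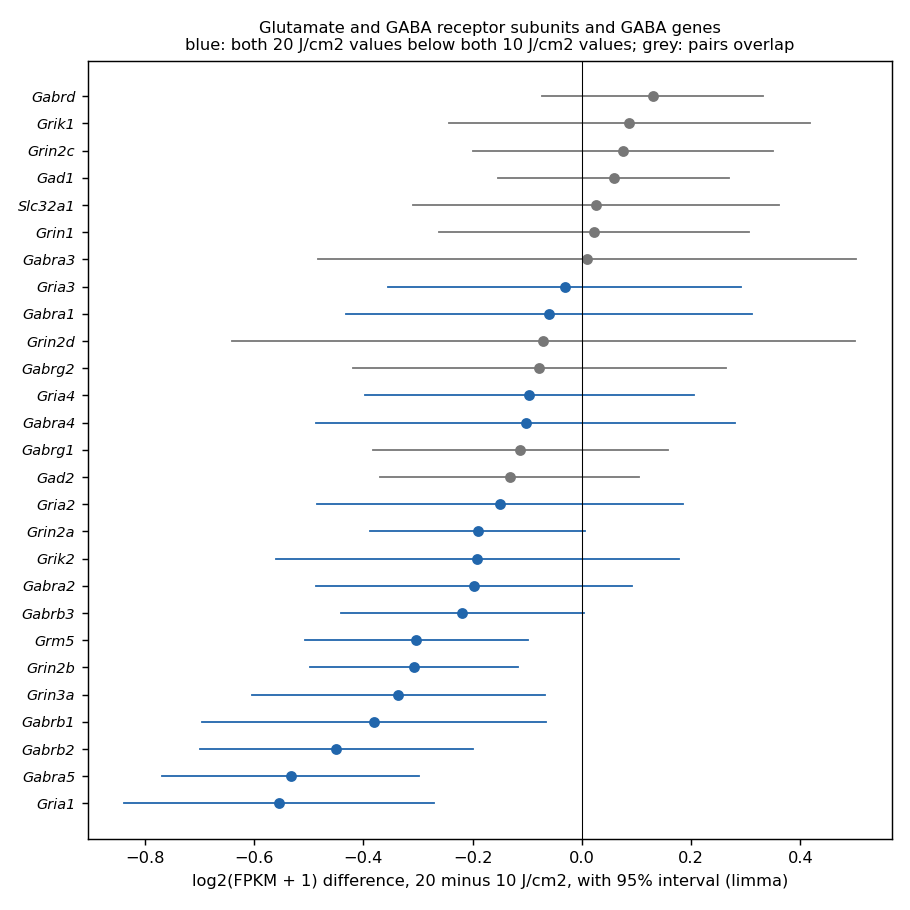
Log2(FPKM + 1) difference, 20 minus 10 J/cm2, for 27 glutamate and GABA receptor subunits and GABA genes, with 95% intervals from limma. Blue members, 16 in number, had both 20 J/cm2 values below both 10 J/cm2 values; Gria1 lies lowest at -0.55, and none of the 27 passed the adjusted threshold.

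Other neuronal genes gave a mixed picture. Of 16 general neuron markers, 8 lay below (50%) and 3 above (18.8%), against 19.7% and 22.4% of all genes. Their median log2 difference was -0.05 (-0.03 without Ep1 3 or Ep1 1). The vesicular glutamate transporter gene Slc17a7 had 219 and 223 FPKM at 20 J/cm2 and 312 and 281 FPKM at 10 J/cm2, while Snap25, a protein of vesicle fusion, had 309 and 297 FPKM at 20 J/cm2 and 287 and 262 FPKM at 10 J/cm2. The pairs were apart for both genes, in opposite directions. Of 13 tubulin isotypes, the building blocks of microtubules, 8 lay below (61.5%) and 2 above (15.4%), with a median of -0.18 (-0.11 without Ep1 4). Neuronal Tubb3 had 149 and 134 FPKM at 20 J/cm2 and 170 and 187 FPKM at 10 J/cm2, and Tubb4b had 105 and 104 FPKM at 20 J/cm2 and 127 and 124 FPKM at 10 J/cm2. Tubb6, an isotype with low levels in the untreated brain (0.896 to 2.06 FPKM), lay above with 12.6 and 15.6 FPKM at 20 J/cm2 and 11.8 and 7.62 FPKM at 10 J/cm2. Of 28 tested of 30 genes of synaptic vesicles and release, 10 lay below (35.7%) and 3 above (10.7%), with a median of -0.02 (0.0032 without Ep1 1).

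Striatal and thalamic markers were set mostly by single libraries. Of 14 tested of 15 striatal markers, 3 lay below, none above and 11 overlapped, with a median log2 difference of -0.12 that was 0.14 without Ep1 1 and -0.55 without Ep1 2. The share below was 21.4%, where all genes had 19.7%, and Drd2 and Gpr6, which are among the 3, passed the expression rule through the 10 J/cm2 pair alone, so that their direction was fixed by it. Drd2, the dopamine D2 receptor gene, had 0.551 and 0.898 FPKM at 20 J/cm2 and 2.69 and 1.22 FPKM at 10 J/cm2. All 4 Ep1 values were under the Ctrl range of 5.96 to 7.52 FPKM. Adora2a, the adenosine receptor gene of the same neurons, overlapped with 1.98 and 2.55 FPKM at 20 J/cm2 and 3.54 and 1.03 FPKM at 10 J/cm2, and its log2 difference of 0.10 became -0.48 without Ep1 2. Prkcd, a kinase gene abundant in thalamus, had 2.60 and 2.19 FPKM at 20 J/cm2 and 2.93 and 10.9 FPKM at 10 J/cm2, so that Ep1 2 alone stood high. Of 7 tested of 15 thalamic and hypothalamic markers 3 lay below (42.9%) and none above, with Tcf7l2 among the 3 through the 10 J/cm2 pair alone. The summed striatal level was 134 and 149 FPKM at 20 J/cm2, 196 and 110 FPKM at 10 J/cm2, and 222 to 252 FPKM in Ctrl.

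Cytokine-response genes lay more often above than below at 20 J/cm2. Among 17 tested of 21 genes of STAT3, SOCS and acute-phase signalling, 12 lay above (70.6%) and none below, against 22.4% and 19.7% of all genes. The median log2 difference was 0.33, and 0.21 without Ep1 2. Socs3, the feedback inhibitor of STAT3 signalling, had 10.4 and 13.8 FPKM at 20 J/cm2 and 8.73 and 6.40 FPKM at 10 J/cm2. All 4 Ep1 values were far over the Ctrl range of 0.897 to 1.26 FPKM, and the difference between energies was 0.61 ± 0.17 (SE, adjusted p of 0.584 in limma). Cebpd, an acute-phase transcription factor, had 8.45 and 11.6 FPKM at 20 J/cm2 and 7.19 and 5.32 FPKM at 10 J/cm2, and Bcl3, a nuclear partner of NF-kB, had 2.62 and 2.83 FPKM at 20 J/cm2 and 2.05 and 1.20 FPKM at 10 J/cm2. Stat3 itself overlapped, with 9.19 and 11.1 FPKM at 20 J/cm2 and 9.22 and 8.37 FPKM at 10 J/cm2. The acute-phase gene Lcn2 overlapped too, with 2.14 and 2.64 FPKM at 20 J/cm2 and 2.24 and 2.23 FPKM at 10 J/cm2, where Ctrl had 0.0220 to 0.0964 FPKM.

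Of 23 tested of 27 genes of Toll-like receptor and NF-kB feedback, 13 lay above (56.5%) and 1 below (4.35%), against 22.4% and 19.7% of all genes. A mean of 1 FPKM or more in both pairs was met by 21 of the 23, and the rule fixed the direction of the others. The median was 0.16, with 0.10 without Ep1 2 and 0.27 without Ep1 1. Relb, an NF-kB subunit, had 4.08 and 4.95 FPKM at 20 J/cm2 and 3.44 and 2.52 FPKM at 10 J/cm2, while Tnfaip3, a brake on NF-kB, overlapped with 1.59 and 1.55 FPKM at 20 J/cm2 and 1.84 and 1.18 FPKM at 10 J/cm2. Of 18 tested of 32 chemokine and cytokine genes, 14 had a mean of 1 FPKM or more in both pairs, 9 lay above (50%) and none below (median 0.19, and 0.30 without Ep1 3). Cxcl16 and Il1b, which are among the 9, entered through the 20 J/cm2 pair alone, so that their direction was fixed by the rule. Ccl12, a monocyte-attracting chemokine, had 3.48 and 2.88 FPKM at 20 J/cm2 and 1.58 and 1.85 FPKM at 10 J/cm2, against 0.102 to 0.353 FPKM in Ctrl. The related chemokine genes Ccl2, Ccl3 and Ccl4 overlapped between the pairs. For Ccl3 the values were 4.12 and 5.18 FPKM at 20 J/cm2 and 5.21 and 3.28 FPKM at 10 J/cm2, and its log2 difference of 0.13 became -0.14 without Ep1 2. Among 15 tested of 28 interferon-stimulated genes 12 had a mean of 1 FPKM or more in both pairs, 9 lay above (60%) and none below (median 0.22, and 0.13 without Ep1 2). Ifit3, which is among the 9, entered through the 20 J/cm2 pair alone, which fixed its direction. Irf9, a subunit of the interferon-activated transcription factor, had 3.21 and 3.27 FPKM at 20 J/cm2 and 2.44 and 2.32 FPKM at 10 J/cm2.

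**Figure D4:**
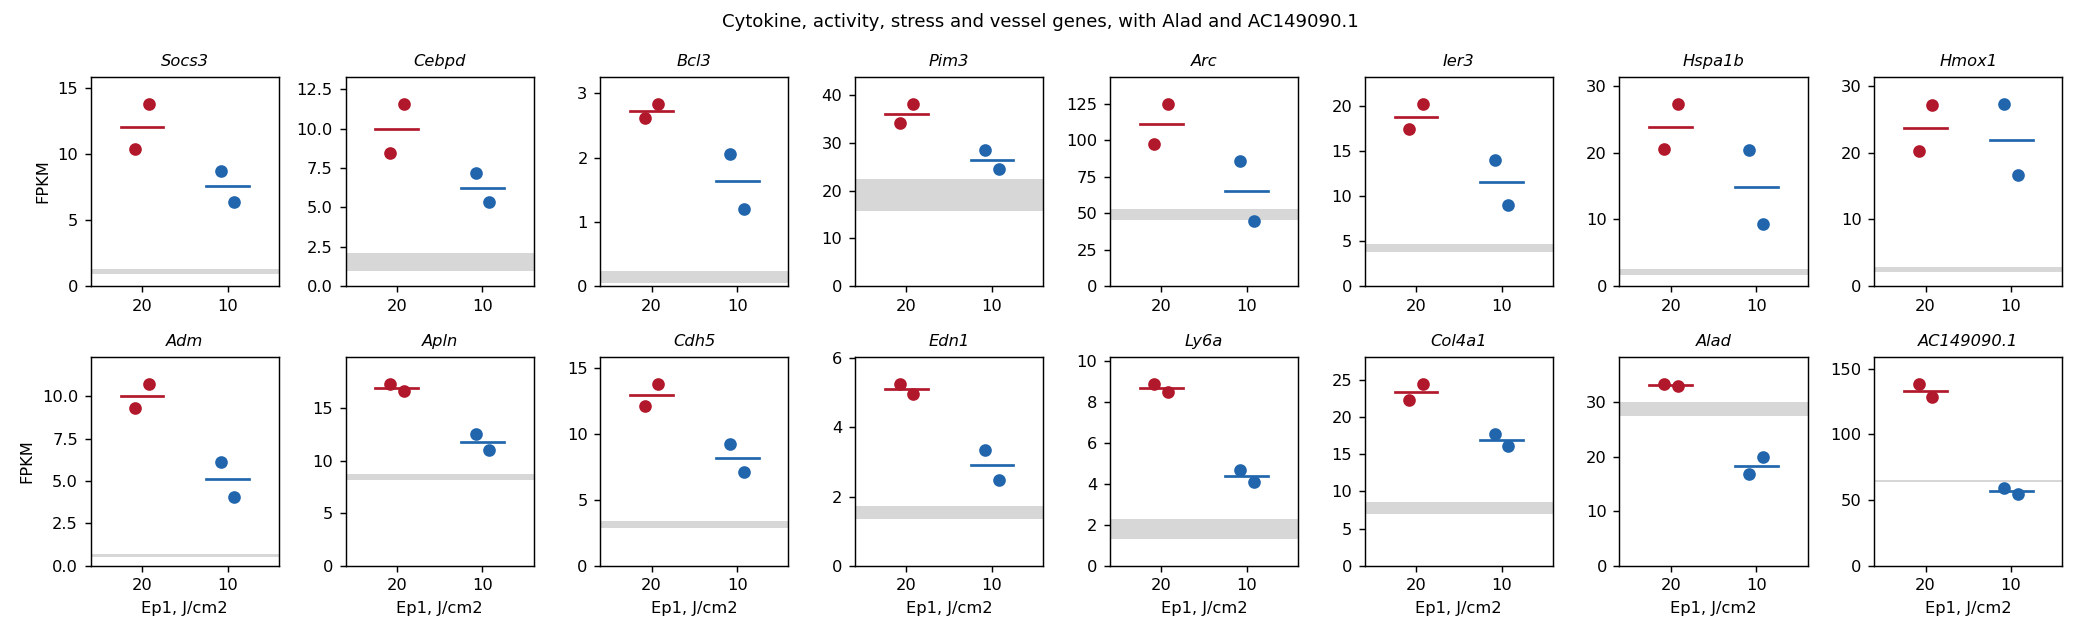
FPKM of 16 genes in the Ep1 libraries at 20 (left) and 10 J/cm2 (right); points are libraries, short lines pair means and the grey band the Ctrl range. The Socs3, Adm and Cdh5 values lie far over Ctrl at both energies and higher at 20 J/cm2, the Hmox1 pairs overlap, and Ctrl lies between the pairs for Alad and AC149090.1.

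Immediate early genes, which neurons and other cells switch on soon after a stimulus, were above for 14 of 35 tested members (of 38) and below for 2. These shares were 40% and 5.71%, against 22.4% and 19.7% of all genes. The median log2 difference was 0.23, and it was 0.07 without Ep1 2, 0.45 without Ep1 1 and 0.36 without Ep1 3. Arc, a synaptic activity gene, had 97.3 and 125 FPKM at 20 J/cm2 and 85.8 and 44.9 FPKM at 10 J/cm2. Ctrl ranged from 45.5 to 52.97 FPKM, with Ep1 2 just under it and the other 3 Ep1 libraries over it. Ier3, a survival gene induced by stress, had 17.5 and 20.2 FPKM at 20 J/cm2 and 14.0 and 8.98 FPKM at 10 J/cm2. Fos overlapped with 18.3 and 26.6 FPKM at 20 J/cm2 and 19.9 and 10.9 FPKM at 10 J/cm2, and Egr3 overlapped with 81.7 and 89.2 FPKM at 20 J/cm2 and 97.8 and 53.5 FPKM at 10 J/cm2. For all 4 of these genes Ep1 2 had the lowest of the Ep1 values. Nr4a2, an orphan nuclear receptor gene, was below, with 2.10 and 4.18 FPKM at 20 J/cm2 and 6.52 and 4.60 FPKM at 10 J/cm2, where Ctrl had 5.14 to 9.40 FPKM.

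Of 25 heat shock genes, 8 lay above (32%), 3 below (12%) and 14 overlapped, where 22.4% of all genes lay above and 19.7% below. The median was 0.07, with -0.027 without Ep1 2 and 0.14 without Ep1 1. Hspa1b, an inducible Hsp70 gene, had 20.6 and 27.3 FPKM at 20 J/cm2 and 20.4 and 9.25 FPKM at 10 J/cm2. Its pairs were separated by a narrow margin, between Ep1 3 and Ep1 1, and the Ctrl libraries lay at 1.71 to 2.60 FPKM. Its near-identical neighbour Hspa1a overlapped, and reads that fit both copies make the level of either uncertain. Hspb1, a small heat shock protein gene, had 14.8 and 19.5 FPKM at 20 J/cm2 and 12.98 and 7.82 FPKM at 10 J/cm2, with 2.19 to 4.34 FPKM in Ctrl. Constitutive Hspa8 overlapped, with 194 and 196 FPKM at 20 J/cm2 and 199 and 174 FPKM at 10 J/cm2. Hmox1, the stress-induced enzyme that breaks down haem, overlapped as well, with 20.2 and 27.2 FPKM at 20 J/cm2 and 27.2 and 16.7 FPKM at 10 J/cm2, and its log2 difference of 0.13 became -0.21 without Ep1 2.

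The promoters of Hspa1b, Hspb1 and Socs3 are shown because the levels of these 3 genes were over Ctrl at both energies and lay above at 20 J/cm2. The 250 bases before each gene's RefSeq start are given 5′ to 3′ on the gene's strand, from RefSeq on GRCm38.p6, at chr17:34959239-34959488 (minus strand), chr5:135887669-135887918 (plus strand) and chr11:117969367-117969616 (minus strand). Capitals mark GAANNTTC, the core of the heat shock element, in Hspa1b and Hspb1, and TTCNNNGAA, the STAT motif, in Socs3, each searched on both strands. The start is that of RefSeq, which for Hspa1b and Hspb1 is also that of the deposited gene; the Socs3 stretch lies within the gene as deposited, at 117966079 to 117970047, whose start is further upstream.
Hspa1b: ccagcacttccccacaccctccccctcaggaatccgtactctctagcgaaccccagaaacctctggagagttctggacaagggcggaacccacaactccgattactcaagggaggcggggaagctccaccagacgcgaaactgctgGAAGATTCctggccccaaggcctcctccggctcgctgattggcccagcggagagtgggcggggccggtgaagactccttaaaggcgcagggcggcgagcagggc
Hspb1: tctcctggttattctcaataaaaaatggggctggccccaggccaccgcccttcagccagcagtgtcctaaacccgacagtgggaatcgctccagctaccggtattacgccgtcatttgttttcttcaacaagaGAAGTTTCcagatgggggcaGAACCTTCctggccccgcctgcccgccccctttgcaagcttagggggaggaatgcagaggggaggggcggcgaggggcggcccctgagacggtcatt
Socs3: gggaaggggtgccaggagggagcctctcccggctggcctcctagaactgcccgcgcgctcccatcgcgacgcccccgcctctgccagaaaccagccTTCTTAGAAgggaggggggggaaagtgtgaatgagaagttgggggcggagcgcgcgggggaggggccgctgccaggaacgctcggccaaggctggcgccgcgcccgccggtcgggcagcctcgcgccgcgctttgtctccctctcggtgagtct
Hspb1 held 2 heat shock matches, beginning 117 and 97 bases before the start, Hspa1b held 1 at 104 bases and Socs3 held 1 STAT match at 154 bases. GAANNTTC occurred in 6.69% and TTCNNNGAA in 7.02% of all 32851 promoter entries over the same length. The matches describe the sequence and do not show that a factor was bound.

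Vessel genes lay in both directions. The shares below in the VEGF list (23.1%) and the endothelial marker list (23.8%) were near the 19.7% of all genes. Of 26 tested of 32 genes of VEGF, angiopoietin and Notch signalling, 12 lay above (46.2%, against 22.4% of all genes) and 6 below. A mean of 1 FPKM or more in both pairs was met by 24 of the 26, and the rule fixed the direction of the others. The median was 0.15, and 0.07 without Ep1 2. Adm, which encodes the vasodilator peptide adrenomedullin, had 9.31 and 10.7 FPKM at 20 J/cm2 and 6.13 and 4.08 FPKM at 10 J/cm2, against a Ctrl range of 0.535 to 0.708 FPKM. Its log2 difference was 0.87 ± 0.16 (SE, adjusted p of 0.362 in limma). Apln, the ligand apelin of growing vessels, had 17.3 and 16.6 FPKM at 20 J/cm2 and 12.5 and 11.1 FPKM at 10 J/cm2, and both pairs were over the Ctrl range of 8.17 to 8.70 FPKM. The growth factor gene Vegfa had 37.3 and 34.9 FPKM at 20 J/cm2 and 31.4 and 24.6 FPKM at 10 J/cm2. Nrp1, a co-receptor for VEGF and semaphorins, lay below with 1.84 and 2.15 FPKM at 20 J/cm2 and 3.19 and 2.89 FPKM at 10 J/cm2.

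Of 21 tested of 22 endothelial markers, 9 lay above (42.9%) and 5 below (23.8%), against 22.4% and 19.7% of all genes. A mean of 1 FPKM or more in both pairs was met by 19 of the 21. Tek, which is among the 5, entered through the 10 J/cm2 pair alone, so that its direction was fixed by the rule. The median was 0.08, and 0.18 without Ep1 4. Cdh5, the adherens junction protein VE-cadherin, had 12.1 and 13.8 FPKM at 20 J/cm2 and 9.20 and 7.07 FPKM at 10 J/cm2, where Ctrl had 2.85 to 3.36 FPKM. Ly6a, a surface protein of endothelial and other cells, had 8.87 and 8.49 FPKM at 20 J/cm2 and 4.67 and 4.07 FPKM at 10 J/cm2, where Ctrl had 1.31 to 2.30 FPKM. Both genes were ordered 20 J/cm2, 10 J/cm2 and Ctrl from high to low, with no overlap. The tight junction gene Cldn5 had the same order, with 38.4 and 37.4 FPKM at 20 J/cm2 and 31.0 and 25.1 FPKM at 10 J/cm2, just over the highest Ctrl value of 24.3 FPKM. The transporter gene Slco1a4, by contrast, had 2.71 and 1.97 FPKM at 20 J/cm2 and 2.86 and 4.03 FPKM at 10 J/cm2, all under the 9.97 to 10.96 FPKM of Ctrl, and Slc22a8, another transporter of the barrier, had 2.05 and 1.53 FPKM at 20 J/cm2 and 2.52 and 2.31 FPKM at 10 J/cm2. None of the 9 tested of 15 pericyte and smooth muscle markers was separated between the pairs (median 0.02), where 57.9% of all genes overlapped.

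Of 21 tested of 26 mechanosensing, KLF and YAP genes, 10 lay above (47.6%) and 2 below (9.52%), against 22.4% and 19.7% of all genes. The median was 0.16, with 0.09 without Ep1 2 and 0.26 without Ep1 1. Edn1, which encodes the vasoconstrictor endothelin, had 5.24 and 4.97 FPKM at 20 J/cm2 and 3.34 and 2.48 FPKM at 10 J/cm2, with Ctrl at 1.36 to 1.73 FPKM. The matricellular protein gene Ccn2, a target of YAP, had 8.88 and 9.95 FPKM at 20 J/cm2 and 6.73 and 5.02 FPKM at 10 J/cm2, and the Ctrl range of 5.99 to 8.95 FPKM overlapped both pairs. Piezo1, a force-gated ion channel gene, had 2.89 and 4.15 FPKM at 20 J/cm2 and 2.64 and 1.89 FPKM at 10 J/cm2, over the 1.16 to 1.38 FPKM of Ctrl. Klf2, a flow-induced factor, overlapped with 4.11 and 5.07 FPKM at 20 J/cm2 and 4.92 and 3.92 FPKM at 10 J/cm2.

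Complement and lysosome genes were above for 16 of 24 tested members (of 27) and below for 1, with a median log2 difference of 0.20. These shares were 66.7% and 4.17%, against 22.4% and 19.7% of all genes. The median was 0.14 without Ep1 2, and 0.11 where a mean of 5 FPKM in either pair was required. C5ar1, which is among the 16, entered through the 20 J/cm2 pair alone, so that its direction was fixed by the rule. C1qa, a chain of the first complement component, had 41.2 and 39.9 FPKM at 20 J/cm2 and 31.8 and 30.8 FPKM at 10 J/cm2, and Ctrl ranged from 22.5 to 29.3 FPKM. Its companions C1qb and C1qc were above too, as was Cd68, a lysosomal protein of phagocytes, with 7.58 and 7.92 FPKM at 20 J/cm2 and 7.03 and 4.51 FPKM at 10 J/cm2. Homeostatic microglial genes were in the other direction. Tmem119 had 3.66 and 3.29 FPKM at 20 J/cm2 and 4.34 and 5.30 FPKM at 10 J/cm2, and the purine receptor gene P2ry12 had 4.13 and 2.91 FPKM at 20 J/cm2 and 4.33 and 5.07 FPKM at 10 J/cm2, against 11.9 to 17.8 FPKM in Ctrl. Over the 12 tested of 17 microglia and macrophage markers 4 lay above (33.3%) and 5 below (41.7%), with a median of 0.00. Of 11 tested of 15 genes of MHC class I presentation 6 lay above (54.5%) and none below (median 0.12), with the heavy-chain gene H2-K1 at 2.27 and 1.92 FPKM at 20 J/cm2 and 1.61 and 1.59 FPKM at 10 J/cm2.

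Neutrophil S100 genes and globins had their highest values in Ep1 4. The neutrophil calcium-binding protein gene S100a8 had 1.35 and 2.91 FPKM at 20 J/cm2 and 0.174 and 0.168 FPKM at 10 J/cm2, and S100a9 had 2.13 and 8.25 FPKM at 20 J/cm2 and 1.16 and 0.671 FPKM at 10 J/cm2. Both passed the expression rule through the 20 J/cm2 pair alone, so that nothing is read from their direction. Of the 16 markers on the neutrophil and lymphocyte list these and Csf3r passed that rule, and Ly6g was listed at 0 in all 8 libraries. The globin gene Hbb-bs overlapped with 51.7 and 119 FPKM at 20 J/cm2 and 82.0 and 40.1 FPKM at 10 J/cm2, over 10.7 to 15.5 FPKM in Ctrl. Summed red blood cell markers were 156 and 313 FPKM at 20 J/cm2, 207 and 107 FPKM at 10 J/cm2, and 44.4 to 53.8 FPKM in Ctrl, with the highest sum in Ep1 4 and the lowest of the Ep1 libraries in Ep1 2; the part of blood in the other lists was not tested.

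Glucocorticoid response genes, which mark stress hormone action, were above for 10 of 23 members (43.5%) and below for none (median 0.15, and 0.08 without Ep1 2). Over all genes, 22.4% lay above and 19.7% below. Pdk4, a kinase that restrains glucose oxidation, had 7.40 and 8.01 FPKM at 20 J/cm2 and 5.17 and 4.96 FPKM at 10 J/cm2, with at most 3.65 FPKM in Ctrl. Fkbp5, which encodes a partner of the glucocorticoid receptor, overlapped with 12.4 and 10.4 FPKM at 20 J/cm2 and 11.1 and 9.66 FPKM at 10 J/cm2. Cytosolic ribosomal protein genes were above for 30 of 48 tested members (of 49), which is 62.5%, and below for 1 (2.08%). Their median was small at 0.11 (0.07 without Ep1 3). Rps14 had 68.9 and 64.1 FPKM at 20 J/cm2 and 54.0 and 55.8 FPKM at 10 J/cm2, with Ctrl between at 56.3 to 62.4 FPKM. Many ribosomal protein genes have processed copies in the genome, which makes single levels uncertain. Of 13 mitochondrially encoded genes 9 lay above (69.2%) and none below (median 0.10, and 0.07 without Ep1 2). Mitochondrial genes took 3.61% and 3.45% of fragments at 20 J/cm2, 3.26% and 3.21% at 10 J/cm2, and 3.24% to 5.08% in Ctrl. Of 14 oligodendrocyte markers 8 lay above (57.1%) and none below (median 0.17, with 0.03 without Ep1 3 and 0.34 without Ep1 4). The myelin protein gene Cldn11 had 141 and 111 FPKM at 20 J/cm2 and 102 and 97.6 FPKM at 10 J/cm2. Mbp overlapped at 359 and 282 FPKM at 20 J/cm2 and 282 and 288 FPKM at 10 J/cm2. Ep1 3 was the highest of the Ep1 libraries for both.

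**Figure D5:**
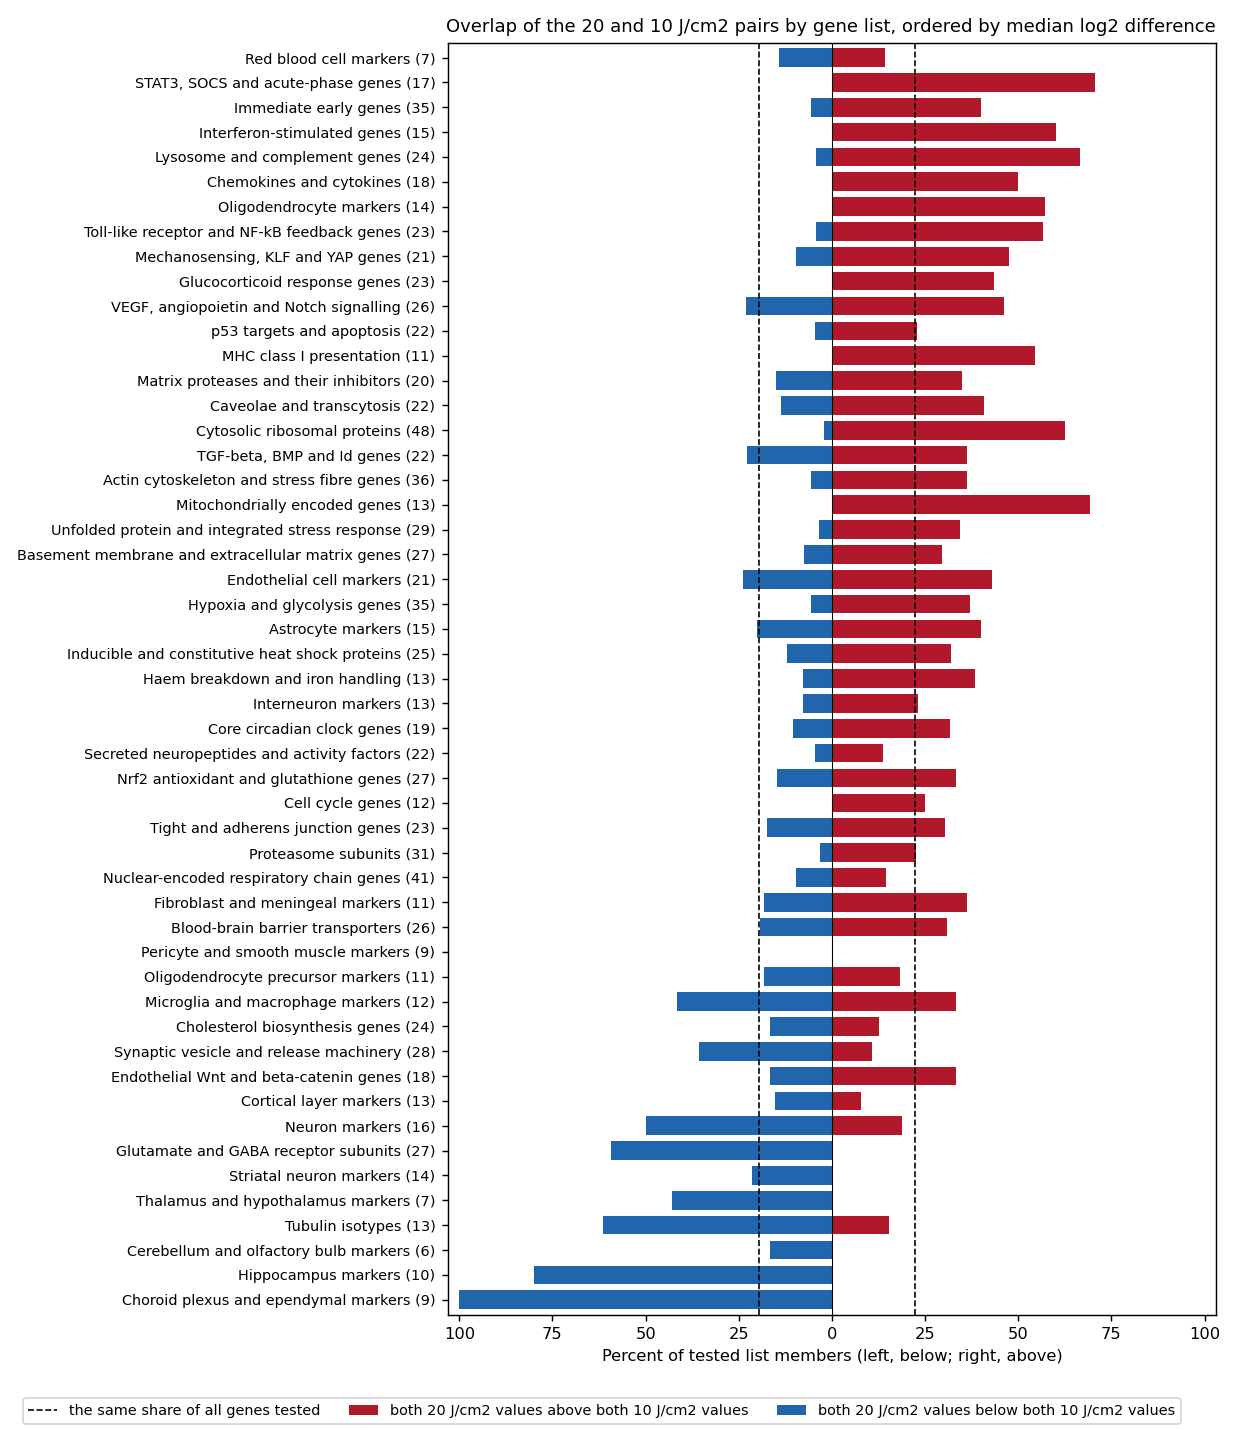
Share of tested members of each gene list whose 2 values at 20 J/cm2 lay above (red, right) or below (blue, left) both values at 10 J/cm2, for lists with at least 5 tested members, whose number stands in parentheses; dashed lines give the share over all genes tested, 22.4% above and 19.7% below. Choroid plexus, hippocampal, tubulin and receptor lists are among those that extend past the left dashed line. The STAT3, mitochondrial, lysosome and complement and ribosomal lists are among those that extend past the right one.

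Shares of further lists are set against 22.4% above and 19.7% below over all genes. Their medians lay within the quartiles of all genes (-0.09 and 0.11), except that of the p53 and apoptosis genes, which lay just over the upper quartile. For proteasome subunits 7 of 31 lay above (22.6%) and 1 below (3.23%), with a median of 0.03 that was 0.011 without Ep1 2 and 0.048 without Ep1 1. For nuclear-encoded respiratory chain genes 6 of 41 lay above (14.6%) and 4 below (9.76%), with a median of 0.03 that was -0.035 without Ep1 3 and 0.091 without Ep1 4. For cholesterol biosynthesis genes 3 of 24 lay above (12.5%) and 4 below (16.7%), with a median of -0.01 that was 0.087 without Ep1 3, 0.045 without Ep1 1 and -0.075 without Ep1 4. Blood-brain barrier transporters had 8 of 26 above (30.8%) and 5 below (19.2%), with a median of 0.02 that was 0.069 without Ep1 3, -0.024 without Ep1 1 and -0.030 without Ep1 4. Tight and adherens junction genes had 7 of 23 above (30.4%) and 4 below (17.4%), with a median of 0.03 that was 0.078 without Ep1 2 and 0.014 without Ep1 4. Of 22 tested of 25 p53 and apoptosis genes 5 lay above (22.7%) and 1 below (4.55%), with a median of 0.12 that was 0.034 without Ep1 2 and 0.23 without Ep1 1. Cdkn1a, the cell cycle inhibitor p21, was at 26.8 and 26.9 FPKM at 20 J/cm2 and 25.5 and 16.4 FPKM at 10 J/cm2, against 2.01 to 3.42 FPKM in Ctrl. Nptx2, a secreted synaptic pentraxin, was among the genes with no separation, at 109 and 125 FPKM at 20 J/cm2 and 139 and 77.0 FPKM at 10 J/cm2, over 13.2 to 16.3 FPKM in Ctrl.

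The log2 difference was over 1 for 59 genes and under -1 for 70, of which 6 and 11 were annotated as protein coding. Among genes with a symbol, a mean of 1 FPKM or more in both pairs and no overlap, the 14 largest positive differences after AC149090.1 included 12 miRNA genes 58 to 127 bases long that held 0 to 32 fragments in an Ep1 library, and also Adm and the small nuclear RNA gene Rn7sk. A few fragments over so short a length set these FPKM values, and they do not measure mature miRNAs. The largest negative differences by the same rule belonged to Ttr, Ecrg4, Lrrc10b and Pcdh20. Lrrc10b, a leucine-rich repeat protein gene, had 2.31 and 2.50 FPKM at 20 J/cm2 and 9.01 and 6.33 FPKM at 10 J/cm2 (-1.33 ± 0.21, SE, adjusted p of 0.291 in limma). Of its 4 Ep1 values only that of Ep1 1 was within the Ctrl range of 8.57 to 13.2 FPKM, and the 20 J/cm2 values were the lowest. Pcdh20, a protocadherin gene of cell adhesion, had 1.31 and 1.04 FPKM at 20 J/cm2 and 2.79 and 6.58 FPKM at 10 J/cm2, against 4.89 to 6.598 FPKM in Ctrl. Ecrg4, a secreted peptide gene of the choroid plexus, had 0.842 and 3.66 FPKM at 20 J/cm2 and 5.23 and 7.77 FPKM at 10 J/cm2, in the same library order as Ttr.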

How the data were processed

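Per the labels, RNA of 8 mouse brain samples was isolated with Trizol, and libraries followed an Illumina protocol. The expression values are FPKM as deposited by the authors, and no other unit was used. Bowtie 0.12.2 and mm8 are listed, with no role, in the submitters' processing notes, but 99.4% of the 55227 identifiers found in GENCODE M21 had the coordinates of GRCm38. Counting tool, strand and filters are not given in the sources used here, so antisense and overlapping genes cannot be told apart. Products of FPKM and length came out as whole fragments, with a tolerance of 0.01, for 100% of the values examined, and their sum is the number of fragments on genes.

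Genes with a mean of 1 FPKM in either Ep1 pair were tested on the log2(FPKM + 1) scale in limma 3.58.1 (R 4.3.3; trended, robust empirical Bayes) in a fit of 3 groups over all 8 libraries; Ctrl entered to estimate the spread. P-values were two-sided and adjusted by Benjamini-Hochberg over all genes at 0.05. The pseudocount understates differences of low genes. The 53 gene and marker lists were described by counts and medians, without a list test. An item is not reported here and was left out of its list. Named genes were those past the threshold, in each direction the largest differences (to 15) among genes with a symbol, pairs that do not overlap and a mean of 1 FPKM in both pairs, up to 3 members of each list with pairs that do not overlap, and 30 genes fixed by name; other named genes were chosen after their values were seen. The comparison, members and lists were chosen with earlier results of these data known. Other pseudocounts, filters, scalings, variance models, voom weights and leaving out each library were tried. The fit was tested on simulated data. Python 3.11.15, numpy 2.4.6, pandas 2.3.3 and matplotlib 3.10.9 prepared tables and plots.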

Additional observations from a re-analysis of the deposited data

Results flagged for a closer look

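AC149090.1 differed between the energies past the threshold, by 1.22 on the log2 scale, with 138 and 128 FPKM at 20 J/cm2 and 59.0 and 54.5 FPKM at 10 J/cm2.

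In 7 other named genes both 20 J/cm2 libraries lay on one side of the Ctrl range and both 10 J/cm2 libraries on the other. Their differences between energies did not pass the adjusted threshold in limma. The 7 are among 216 named genes, many of them picked because their pairs do not overlap. The share over all genes tested is not given here, so 7 is not a total. The log2 difference was 0.82 for Alad, 1.24 for Mir8099-2, 0.53 for Nfkbid, 0.27 for Rps14, -0.26 for Tubb4b, -0.70 for Aqp1 and -0.93 for Shisa6. Nfkbid, an inhibitor-like partner of NF-kB, had 1.64 and 1.61 FPKM at 20 J/cm2 and 0.929 and 0.722 FPKM at 10 J/cm2, with Ctrl at 1.11 to 1.40 FPKM. Shisa6, which encodes a partner of AMPA receptors, had 3.15 and 3.26 FPKM at 20 J/cm2 and 6.73 and 7.31 FPKM at 10 J/cm2, with Ctrl at 3.48 to 6.30 FPKM. Nfkbid met the expression rule through the 20 J/cm2 pair alone and Aqp1 through the 10 J/cm2 pair alone, which fixed the direction of both. Tubb4b and Aqp1 were named after their values were seen. Mir8099-2 held 9 to 32 fragments in the Ep1 libraries.

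In the Ctrl group, which entered the fit for its spread, 1 library stood far from the other 3 for 6 of the quantities examined. Chance gives such a distance in about 1 of 20 groups. How many quantities were examined is not given here, so 6 cannot be set against that rate. Nor is 6 a total, as Lars2 had 64.1 FPKM in Ctrl 3 and at most 10.7 FPKM in the other Ctrl libraries. Ctrl 3 had 5.08% mitochondrial fragments, 1.46% of fragments on CT010467.1, 17.8 FPKM of P2ry12 and 48.7 FPKM of Rn7sk. Ctrl 4 had 63.6 FPKM of AC149090.1, where the others had 65.0 to 65.2 FPKM, and 15.5 FPKM of Hbb-bs.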

How the results depend on the processing

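No paired analysis was possible because the 20 and 10 J/cm2 libraries share no replicate number. The number of genes called higher at 20 J/cm2 was 1 in most alternatives, but 7 with no filter, 3 with plain empirical Bayes, 0 in the 4 Ep1 libraries alone and 0 to 1 when a library was left out; the number called lower was 0 except for 4 with no filter, and the cause was not tested. The genes with both 20 J/cm2 values above numbered 5093 with no filter and 2087 with a mean of at least 5 FPKM, where fewer genes enter, and 3271 to 6164 when a library was left out; those below numbered 4900, 1560 and 2870 to 5397. Leaving out an Ep1 library leaves 1 value on that side, which is assumed to vary like the other groups, and so fewer pairs can overlap. Without Ctrl 3, 1860 genes had an unadjusted p under 0.05, against 1063 with it.

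Directions turned for 17 named genes when a library was left out. Log2 differences ran from -0.48 to 0.68 for Adora2a, -0.32 to 0.79 for Atf3, -0.12 to 0.011 for Camk2a, -0.20 to 0.29 for Ccl2, -0.14 to 0.40 for Ccl3, -0.19 to 0.66 for Egr3, -0.020 to 0.14 for Gad1, -0.0065 to 0.051 for Grin1 and -0.15 to 1.04 for Hbb-bs. They ran from -0.21 to 0.47 for Hmox1, -0.027 to 0.16 for Hspa8, -0.087 to 0.18 for Klf2, -0.043 to 0.17 for Lcn2, -0.012 to 0.34 for Mbp, -0.25 to 0.59 for Nptx2, -0.14 to 0.24 for Tnfaip3 and -0.17 to 0.032 for Wfs1. Grin1 also turned, to -0.017, under quantile scaling. In all 17 the pairs overlap, and the cause was not tested. The median-of-ratios and quantile scalings gave 3050 above and 3088 below, and 2903 above and 3274 below. A scaling to the fragments on genes, chosen after seeing the data, gave 3171 and 2950. The precision is limited by 2 libraries a side, with a median SE of 0.12 on the log2 scale.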

Other observations

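Among abundant short entries, Gm23935, annotated as a miRNA gene, had 4511 and 6362 FPKM at 20 J/cm2 and 2435 and 3168 FPKM at 10 J/cm2, against 4042 to 8612 FPKM in Ctrl. CT010467.1 took 0.119% and 0.184% of fragments at 20 J/cm2, 0.0754% and 0.0985% at 10 J/cm2 and up to 1.46% in Ctrl 3. Lars2, a mitochondrial tRNA synthetase gene, had 9.20 and 11.7 FPKM at 20 J/cm2 and 5.50 and 6.78 FPKM at 10 J/cm2, with 7.82 to 64.1 FPKM in Ctrl. All 3 were highest in Ctrl 3, and none of the differences between energies passed the adjusted threshold in limma.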
